A study of Homo sapiens with 6 samples.

Results

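The genes studied here encode the nuclear pore complex and the receptors that carry cargo through it. They were chosen by gene symbol: the numbered NUP, KPNA and KPNB, IPO, XPO and TNPO genes, together with RAN, RANBP1, RANBP2, RANGAP1, RCC1, CSE1L, TPR, NDC1, POM121, AAAS, SEH1L and RAE1. The rule found 58 of the 17280 genes in the deposited table. The 6 RNA libraries come from sphere cultures, which grow in suspension and favour stem-like cells, of CAL-27, a cell line derived from a human squamous carcinoma of the tongue. The 3 libraries titled LF3 come from spheres treated for 24 h, and the 3 libraries titled CON are labelled as normal controls. The labels give no time for the CON libraries. LF3 is a small molecule that blocks the contact of beta-catenin with TCF4, and the design text of the series names it as the treatment. The treatment field of the same 3 libraries instead names elesclomol-Cu, a copper ionophore given with its metal, so which agent the cells received cannot be told apart from the labels. Both groups share the line and the sphere culture, no dose is given, and no label says that replicates were separate cultures, so the spread behind each p-value is that between libraries and may be technical.

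The nuclear pore is a ring-shaped channel of nucleoporins set into the nuclear envelope, with an outer ring, an inner ring, a membrane anchor, filaments on its cytoplasmic face, a basket on its nuclear face and a central channel lined by flexible phenylalanine-glycine repeats. Importins and exportins, collectively karyopherins, carry proteins and RNAs through that channel. The small GTPase Ran gives the traffic its direction: RCC1 on chromatin loads Ran with GTP in the nucleus, and RANGAP1, helped by RANBP1 and RANBP2, triggers GTP hydrolysis in the cytoplasm. Ran, importin beta and several nucleoporins also act in spindle assembly and in rebuilding the nuclear envelope after mitosis.

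Values are TPM, in which reads are divided by gene length and each library is scaled to the same total, so levels of different genes can be set side by side. The depth of each library is unknown, since TPM does not keep it, and no counting interval was computed. In bulk RNA, fewer cells that express a gene and less RNA of it per cell cannot be told apart. Epithelial markers were present in both groups, with EPCAM at 337 ± 6.40 TPM in LF3 and 337 ± 17.1 TPM in CON and KRT5 at 454 ± 6.66 TPM in LF3 and 102 ± 3.43 TPM in CON (SD, n = 3 each). KRT17 was lower in LF3, at 58.0, 59.4 and 59.0 TPM, against 192, 198 and 209 TPM in CON, and KRT14 was below 1 TPM in both groups. Of the 8 squamous markers, 7 were tested, of which 5 were higher, 1 lower and 1 not called as deposited, and 3 higher and 3 lower after rescaling by the median ratio. Their summed TPM ran from 1692 to 1725 in LF3 and from 1187 to 1211 in CON. The summed TPM of 3 leukocyte markers ran from 45.03 to 49.1 in LF3 and from 327 to 340 in CON. Almost all of that sum was CD68, with PTPRC, the defining leukocyte marker, listed at 0 in every LF3 library and at a mean of 0.0133 TPM in CON. CD68 alone averaged 47.4 ± 2.25 TPM in LF3 and 334 ± 6.49 TPM in CON. The 5 fibroblast markers, of which COL3A1 and DCN were listed at 0 in every LF3 library, summed to 5.20 to 5.65 TPM in LF3 and 12.2 to 13.3 TPM in CON, and the 3 endothelial markers to 6.24 to 7.26 TPM in LF3 and 0.390 to 0.530 TPM in CON, almost all of the LF3 sum being CDH5. The part of these markers in the results was not tested.

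Most pore and transport genes were higher in the LF3 libraries. Of the 58 genes, 56 had a mean of at least 1 TPM and were tested, and KPNA7 and NUP210L lay below that level. Among the 56, 51 were higher, 2 lower (KPNA5 and NUP62CL) and 3 not called (TPR, RANBP2 and NUP58), by limma with Benjamini-Hochberg adjusted p under 0.05. Across all 12195 tested genes, 53.2% were called higher and 32.3% lower. The median log2 fold change, taken as LF3 minus CON after adding 1 to each TPM value, was 1.09 for the 56 genes and 0.24 for all tested genes. A rise of at least 1 on that scale was seen in 32 of the 56, against 20.8% of all tested genes, and one of at least 2 in 9 of the 56, against 3.49%. Every LF3 library lay above every CON library for 50 of the genes, against 53.5% of all tested genes, and below for 2, against 32.7%. The other 4, IPO7, RANBP2, TPR and NUP58, overlapped.

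The general shift of 0.24 depends on how the libraries are scaled, and rescaling by the median ratio brought the median of all tested genes to -0.0055. After that rescaling 50 of the 56 genes were higher and 4 lower, where 42.6% of all tested genes were higher and 42.7% lower, and the median of the 56 was 0.83. Quantile normalization gave 49 higher and 6 lower, where 43.9% of all tested genes were higher and 41.4% lower, with a median of 0.77 for the 56 and 0.027 for all tested genes. The 51 genes called higher as deposited include IPO7, which was not called after median-ratio rescaling and lower after quantile normalization.

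**Figure D1:**
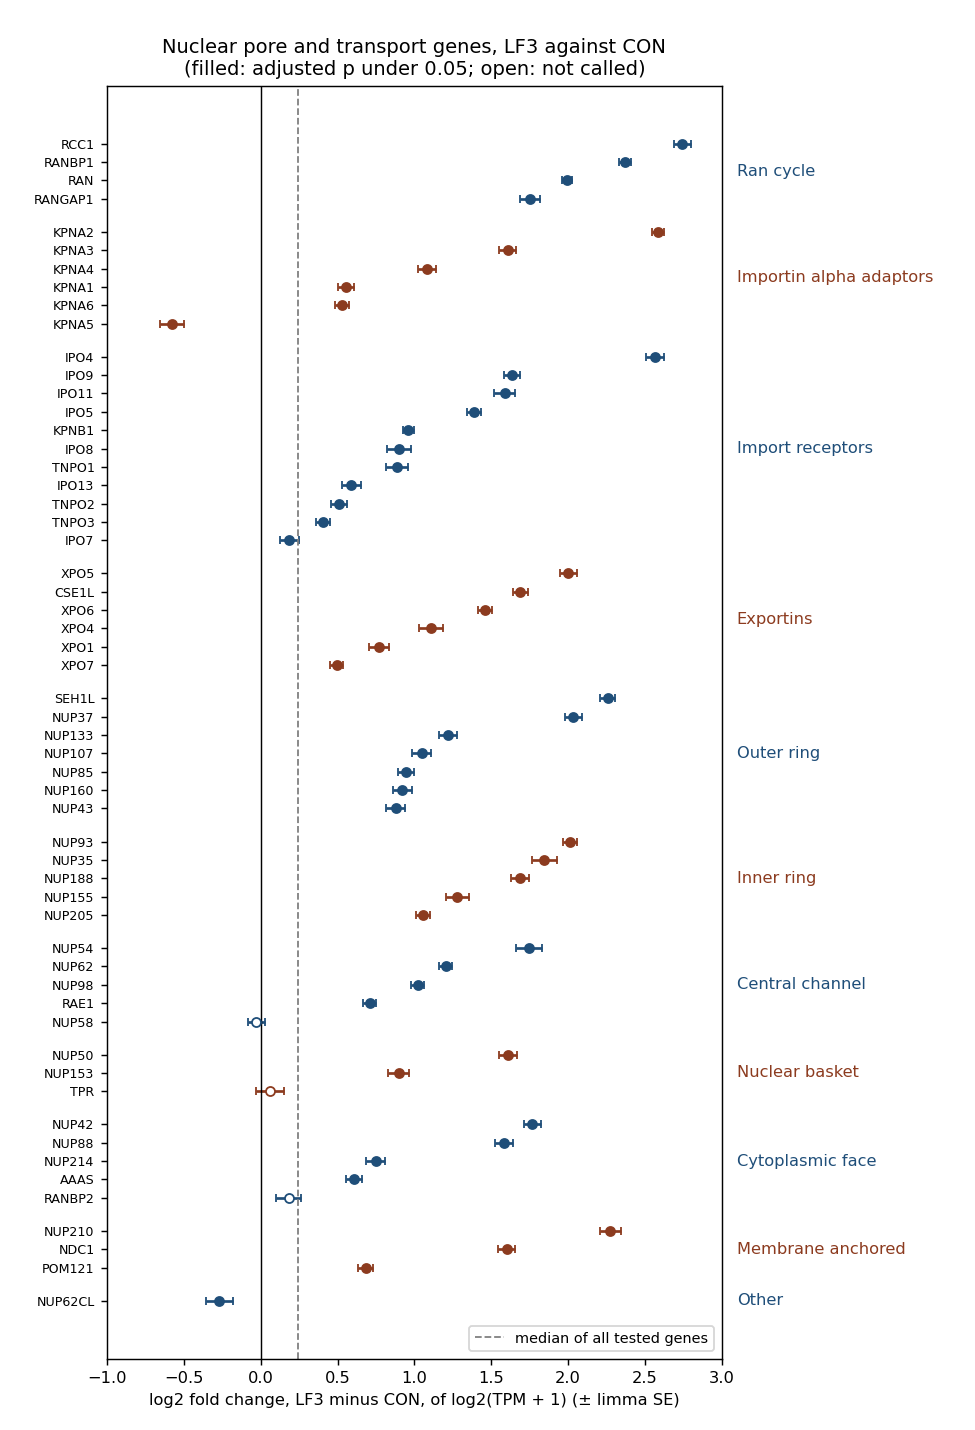
Log2 fold change of the 56 tested genes (LF3 minus CON, from log2(TPM + 1), ± limma standard error), grouped by role, with colours that alternate between roles; filled points passed the adjusted p threshold of 0.05 and open points did not. The dashed line is the median of all tested genes, 0.24, and points right of it are genes that rose more than that; RCC1 at 2.74 is the highest and KPNA5 at -0.58 the lowest.

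The promoters of 4 of these genes are shown because KPNA2 and IPO4 are among the highest rises and TPR and NUP58 were not called. Each is the 250 bases before the RefSeq start (GRCh38.p14), 5′ to 3′ on the strand of the gene, and each gene has 1 start in that table. Capitals mark matches, on either strand, to the core letters CACGTG (the E-box bound by MYC and its relatives), CCGGAAG (ETS factors), CCAAT (NF-Y), GGGCGG (SP factors), TTTGGCGC and TTTCCCGC (both E2F), and to the NRF1 palindrome. No 2 of these matches overlapped in the 4 sequences.
KPNA2 (chr17:68035485-68035734, plus strand): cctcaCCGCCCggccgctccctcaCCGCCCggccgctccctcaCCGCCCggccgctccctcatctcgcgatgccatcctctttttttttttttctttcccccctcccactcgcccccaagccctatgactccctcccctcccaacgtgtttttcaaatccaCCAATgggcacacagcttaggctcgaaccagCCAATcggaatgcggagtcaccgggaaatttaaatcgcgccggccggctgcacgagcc
IPO4 (chr14:24188817-24189066, minus strand): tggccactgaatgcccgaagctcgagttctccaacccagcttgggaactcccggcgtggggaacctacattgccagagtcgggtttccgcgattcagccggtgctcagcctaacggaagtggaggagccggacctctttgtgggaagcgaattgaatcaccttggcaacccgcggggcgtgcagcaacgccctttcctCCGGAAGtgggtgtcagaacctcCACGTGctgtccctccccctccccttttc
TPR (chr1:186375254-186375503, minus strand): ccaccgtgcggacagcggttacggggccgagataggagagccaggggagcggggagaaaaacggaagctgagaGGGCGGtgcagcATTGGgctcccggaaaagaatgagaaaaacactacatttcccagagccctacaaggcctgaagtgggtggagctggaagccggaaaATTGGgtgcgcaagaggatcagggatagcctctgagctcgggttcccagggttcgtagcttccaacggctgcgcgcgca
NUP58 (chr13:25301375-25301624, plus strand): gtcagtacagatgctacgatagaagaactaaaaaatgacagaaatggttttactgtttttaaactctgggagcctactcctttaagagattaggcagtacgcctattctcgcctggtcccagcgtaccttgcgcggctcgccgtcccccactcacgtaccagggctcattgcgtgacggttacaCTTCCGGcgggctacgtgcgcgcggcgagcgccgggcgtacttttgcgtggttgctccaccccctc
The KPNA2 sequence holds 2 CCAAT and 3 GGGCGG matches and the IPO4 sequence 1 CACGTG and 1 CCGGAAG match. TPR holds 2 CCAAT and 1 GGGCGG match, and NUP58 1 CCGGAAG match. Of the motifs found, all but CACGTG thus stood in 1 gene that rose and 1 that was not called. The 4 genes were picked by their change, and CACGTG was absent from KPNA2. RefSeq promoters were found for 51 of the 58 genes, not for XPO7, KPNB1, KPNA7, RANBP1, KPNA4, NUP43 and KPNA5, and the first listed start of each was searched. CCGGAAG stood in 14 of 51 (27.5%), against 8.82% of 27305 genes with a promoter in the table. CACGTG stood in 7 (13.7%, against 6.49%), CCAAT in 22 (43.1%, against 33.0%), GGGCGG in 26 (51.0%, against 42.3%) and the NRF1 palindrome in 3 (5.88%, against 1.13%). TTTGGCGC and TTTCCCGC stood in none of the 51, against 0.553% and 1.42%. Of the 51 genes, 46 were called higher as deposited, among them all 7 with CACGTG. IPO7, whose call depended on the scaling, is 1 of those 7. The 27305 genes include many that were not measured in these cells, and a match is a description of the letters only.

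The 4 genes grouped here as the Ran cycle had the largest median rise of any role group, 2.18. All 4 were called higher, also after rescaling. RANBP2, which also helps RANGAP1, was placed with the cytoplasmic face and was not called, and NUTF2 stands outside the symbol rule. RAN itself, the GTPase, was measured at 562, 567 and 576 TPM in the LF3 libraries, against 142, 146 and 138 TPM in the CON libraries, a log2 fold change of 1.99 ± 0.034. RANBP1, which binds Ran-GTP and assists its hydrolysis, had 642, 661 and 697 TPM in LF3, against 127, 126 and 131 TPM in CON. RCC1, the nucleotide exchange factor on chromatin, was found at 149, 143 and 152 TPM in LF3, against 22.0, 19.7 and 22.1 TPM in CON. In each of the 3 genes the lowest LF3 library stood several times above the highest CON library, and RCC1, with a log2 fold change of 2.74 ± 0.054 (SE), ranked 77 among the 12195 tested genes by that measure. RANGAP1, the activator of Ran's GTPase, gave 154, 158 and 154 TPM in LF3, against 43.8, 41.7 and 50.8 TPM in CON. Its rise of 1.75 ± 0.064 was the smallest of the 4. The adjusted p was 9.05e-12 for RCC1, 2.58e-12 for RANBP1, 3.55e-12 for RAN and 7.12e-10 for RANGAP1 (limma).

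RNA of the exchange factor and the GTPase activator, whose proteins act on opposite sides of the envelope, came to nearly equal levels in LF3. The ratio of RANGAP1 to RCC1 was 1.04, 1.10 and 1.01 in the LF3 libraries and 1.99, 2.11 and 2.30 in the CON libraries. Such a ratio is taken within a library, so a factor that scales the whole library leaves it as it is. RAN to RCC1 was 3.84 ± 0.111 in LF3 and 6.71 ± 0.615 in CON (SD, n = 3 each), and the groups did not overlap there either. RAN was the most abundant of the 4 in CON and RANBP1 in LF3. Both have limits as measured: GENCODE v29 lists 9 pseudogenes named after RAN, whose reads could be confused with it, and RANBP1 shares exon bases with TRMT2A on the opposite strand.

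The 7 importin alpha genes encode adaptors that bind the classical nuclear localization signal and hand it to importin beta. Of the 6 tested, 5 were higher and 1 lower, with log2 fold changes from -0.58 to 2.59. Across all tested genes 53.2% were higher and 32.3% lower. KPNA2 was measured at 409, 430 and 408 TPM in LF3, against 68.3, 67.3 and 69.5 TPM in CON, a ratio of means of 6.08 and a log2 fold change of 2.59 ± 0.037 (limma adjusted p = 1.31e-12). Its libraries differed by little within each group and by a wide margin between them. KPNA3 followed at 57.9, 55.5 and 54.8 TPM in LF3, against 16.9, 19.0 and 17.3 TPM in CON. KPNA6 had 41.5, 42.7 and 41.0 TPM in LF3, against 28.6, 28.95 and 28.4 TPM in CON, a rise of 0.53 ± 0.046. KPNA4 rose by 1.08 ± 0.060 and KPNA1 by 0.55 ± 0.053, so the paralogs moved by unequal amounts. KPNA5 went the other way, with 8.24, 7.91 and 7.17 TPM in LF3, against 12.1, 12.8 and 11.4 TPM in CON (limma adjusted p = 2.96e-05). KPNA7, a paralog known for its role in the early embryo, was listed at 0.470, 0.0800 and 0.220 TPM in LF3 and at 0.340, 0.340 and 0.410 TPM in CON, too low to test.

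KPNA2 made up most of the importin alpha RNA in LF3. It held 68.0 ± 0.651% of the summed TPM of the 7 genes in LF3 and 38.7 ± 1.27% in CON (SD, n = 3 each). The summed TPM itself was 608, 629 and 596 in LF3, against 176, 180 and 174 in CON. KPNA6, second in CON at 16.2 ± 0.124%, held 6.83 ± 0.0415% in LF3, and KPNA5 held 1.27 ± 0.0775% in LF3 and 6.83 ± 0.297% in CON. The ratio of KPNA2 to KPNB1, its importin beta partner, was 1.95, 2.004 and 1.96 in LF3 and 0.629, 0.611 and 0.662 in CON. RNA of KPNA2 alone thus stood above that of KPNB1 in LF3 and below it in CON. The summed TPM of the 7 adaptor genes stood above KPNB1 in both groups, with KPNB1 at 211 TPM in LF3 and 108 TPM in CON. Reads of the 3 pseudogenes named after KPNA2 in GENCODE v29 could add to or take from its value.

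**Figure D2:**
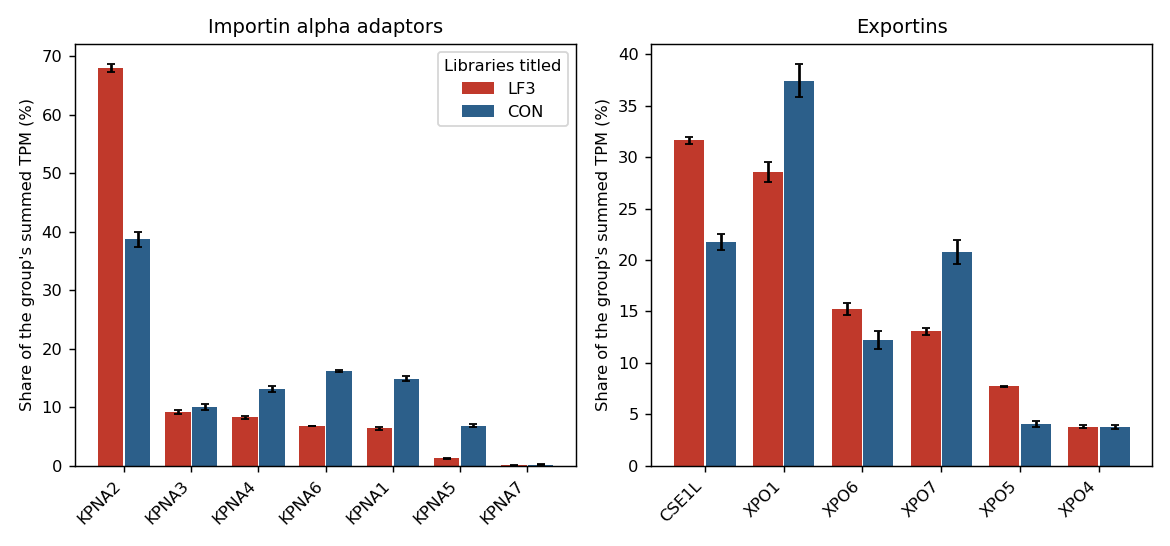
Share of the summed TPM held by each importin alpha gene (left) and each exportin gene (right), in percent, as the mean of 3 libraries with SD bars, LF3 left of CON. KPNA2 held 68.0% of importin alpha TPM in LF3 and 38.7% in CON, and CSE1L and XPO1 exchanged first and second place among exportins.

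Import receptors of the importin beta type bind cargo either through an adaptor or directly. All 11 were tested and called higher as deposited, with a median of 0.90 and a range from 0.19 to 2.57, and 10 were higher after median-ratio rescaling. The shares of all tested genes called higher were 53.2% as deposited and 42.6% after that rescaling, and their median as deposited was 0.24. KPNB1, importin beta itself, was the most abundant at 210, 214 and 208 TPM in LF3, against 109, 110 and 105 TPM in CON, a ratio of 1.95. IPO4, whose known cargoes include histones, had the largest change, with 44.5, 42.6 and 45.2 TPM in LF3, against 6.39, 6.57 and 6.89 TPM in CON. It was the least abundant of the 11 in CON and the sixth in LF3, and its log2 fold change was 2.57 ± 0.058 (limma adjusted p = 2.47e-11). IPO4 shares exon bases with AL136295.4 on its own strand and REC8 on the opposite one. IPO9, another receptor for histones, had 38.6, 38.8 and 37.8 TPM in LF3, against 11.2, 11.9 and 12.0 TPM in CON. IPO5, which imports ribosomal proteins among others, rose by 1.39 ± 0.043, and IPO11, which shares exon bases with KIF2A and LRRC70, by 1.59 ± 0.068.

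The remaining receptors changed less. IPO7, also an importer of ribosomal proteins, had 125, 123 and 107 TPM in LF3, against 104, 108 and 98.5 TPM in CON. Its groups overlapped, and its log2 fold change of 0.19 ± 0.062 had a limma adjusted p = 0.0162. That call was lost without LF3 replicate 1 (adjusted p = 0.0660), LF3 replicate 2 (0.0627) or CON replicate 3 (0.0627), and the direction turned after both rescalings (-0.086 and -0.14). TNPO3, an importer of SR splicing factors, was at 50.8, 52.1 and 49.3 TPM in LF3, against 37.0, 38.7 and 38.6 TPM in CON. Its rise of 0.40 ± 0.046 fell to 0.038 without a call under quantile normalization (limma adjusted p = 0.410). TNPO1, which imports hnRNP proteins, rose by 0.89 ± 0.073 and its close relative TNPO2 by 0.51 ± 0.053. IPO8 and IPO13 rose by 0.90 ± 0.078 and 0.59 ± 0.064. GENCODE v29 lists 3 pseudogenes named after TNPO1, 2 after IPO7, 1 after IPO5 and 1 after IPO8. IPO5 passed IPO7 in level: IPO5 held 18.9 ± 0.129% of import receptor TPM in LF3 and 13.4 ± 0.319% in CON, and IPO7 held 15.0 ± 0.797% in LF3 and 24.6 ± 0.441% in CON.

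All 6 exportins were higher, also after both rescalings, with a median of 1.28. CSE1L, which returns importin alpha to the cytoplasm, was measured at 192, 189 and 182 TPM in LF3, against 60.3, 58.7 and 53.4 TPM in CON, a log2 fold change of 1.69 ± 0.050 (limma adjusted p = 1.49e-10). XPO1, the receptor for leucine-rich export signals, had 175, 176 and 157 TPM in LF3, against 99.6, 107 and 90.6 TPM in CON, a smaller rise of 0.77 ± 0.064. CSE1L stood above XPO1 in every LF3 library and below it in every CON library, with ratios of 1.10, 1.07 and 1.16 in LF3 and 0.606, 0.550 and 0.589 in CON. XPO5, the exporter of precursor microRNAs, rose most, to 46.8, 47.0 and 44.0 TPM in LF3, against 10.7, 10.4 and 11.1 TPM in CON. XPO5 shares exon bases with POLR1C on the opposite strand, and no source used here says whether the counting kept strand. XPO6, known as the exporter of actin with profilin, was at 89.4, 90.6 and 91.0 TPM in LF3, against 32.5, 31.0 and 33.1 TPM in CON. XPO4 rose by 1.11 ± 0.077. XPO7 had the smallest rise, with 77.5, 77.8 and 77.1 TPM in LF3, against 52.7, 55.9 and 55.6 TPM in CON, or 0.49 ± 0.042, which became 0.22 and 0.13 after the 2 rescalings.

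**Figure D3:**
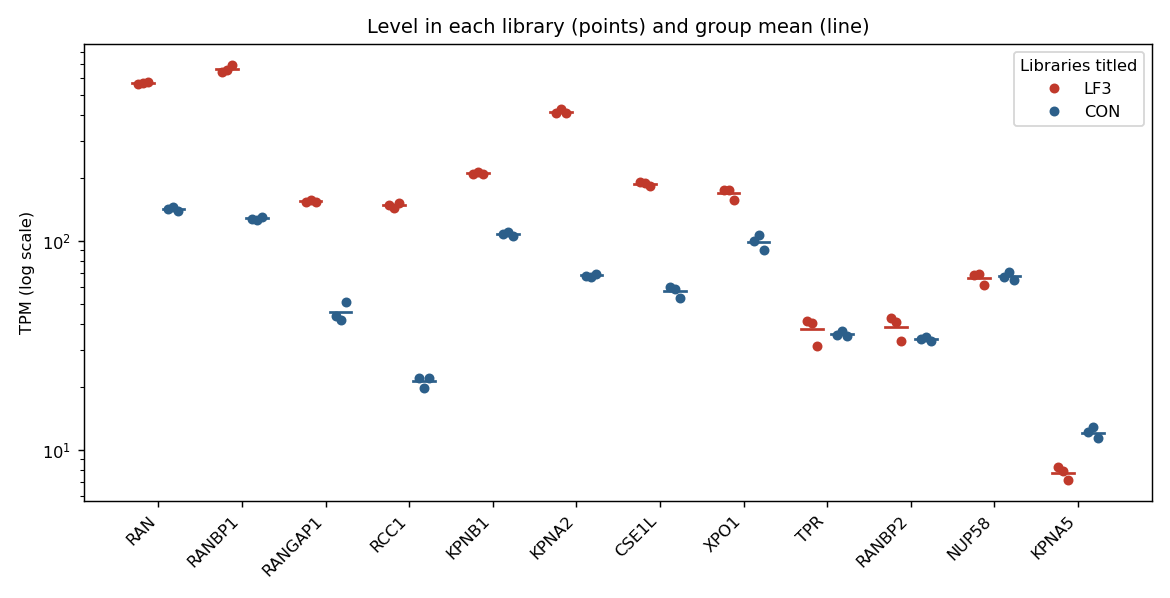
TPM in each library (points, log axis) with the group mean (line), LF3 left of CON, for the Ran cycle genes, the main karyopherins and 4 genes that rose little or fell. RAN, RANBP1, RANGAP1, RCC1, KPNB1, KPNA2, CSE1L and XPO1 have every LF3 library above every CON library, TPR, RANBP2 and NUP58 overlap, and KPNA5 lies lower in LF3.

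The outer ring, or Y complex, is the scaffold that coats the curved pore membrane and is the first part to assemble on chromatin after mitosis. All 7 of its genes were higher under each scaling, with a median of 1.05. SEH1L, a small subunit that also serves in the nutrient-sensing GATOR2 complex, had 130, 125 and 122 TPM in LF3, against 26.0, 26.1 and 24.3 TPM in CON (2.26 ± 0.047, limma adjusted p = 1.45e-11). NUP37, also a small peripheral subunit, had 58.6, 60.8 and 58.9 TPM in LF3, against 14.3, 14.2 and 12.9 TPM in CON (2.03 ± 0.055). For both, the values in LF3 were more than 4 times those in CON. The other 5 lay close together, from 0.88 for NUP43 to 1.22 for NUP133, with NUP107, NUP85 and NUP160 between. NUP43 had 38.2, 38.1 and 35.9 TPM in LF3, against 19.7, 21.5 and 18.6 TPM in CON, and NUP160 37.2, 39.9 and 35.1 TPM in LF3, against 19.8, 19.7 and 18.3 TPM in CON. Among the 7 outer ring genes of the rule, the highest and lowest means differed by 3.48-fold in LF3 and 2.15-fold in CON. SEC13, at 107 ± 3.65 TPM in LF3 and 128 ± 9.35 TPM in CON, is not in that comparison. NUP43 shares exon bases with PCMT1 on the opposite strand.

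The inner ring holds the central channel in place, and all 5 of its genes were higher under each scaling, with a median of 1.69. NUP93, the linker that binds the channel trimer, was at 103, 105 and 107 TPM in LF3, against 25.7, 25.8 and 24.3 TPM in CON. NUP35, a membrane-binding subunit, had 39.0, 38.8 and 34.6 TPM in LF3, against 8.43, 10.3 and 10.4 TPM in CON. The smallest rise was that of NUP205, with 76.5, 78.9 and 73.2 TPM in LF3, against 36.1, 36.6 and 35.4 TPM in CON, or 1.06 ± 0.046. Its large relative NUP188 rose by 1.69 ± 0.057 and NUP155 by 1.28 ± 0.075. NUP155 had 33.7, 34.0 and 33.8 TPM in LF3, against 15.1, 12.1 and 13.0 TPM in CON. NUP205 led the inner ring in CON at 35.1 ± 0.379% of its summed TPM and NUP93 in LF3, at 33.0, 32.9 and 34.7% in its 3 libraries. NUP188 shares exon bases with SH3GLB2 on the opposite strand and AL672142.1 on its own, and GENCODE v29 lists 2 pseudogenes named after NUP35.

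In the central channel, 4 of 5 genes were higher as deposited, against 53.2% of all tested genes, and NUP58 was not called. NUP62, NUP58 and NUP54 encode the 3 subunits of the channel trimer, yet they moved apart. NUP54 was at 38.5, 36.6 and 36.6 TPM in LF3, against 12.1, 9.68 and 9.51 TPM in CON, a rise of 1.75 ± 0.084. NUP62 had 65.4, 64.7 and 66.2 TPM in LF3, against 27.6, 27.4 and 28.5 TPM in CON, a rise of 1.20 ± 0.044. NUP58 gave 68.9, 69.3 and 61.4 TPM in LF3, against 67.5, 71.1 and 65.0 TPM in CON, with a log2 fold change of -0.029 and a 95% interval from -0.16 to 0.098 (limma adjusted p = 0.644). NUP58 was thus far above its partners in CON and level with NUP62 in LF3. After median-ratio rescaling it was called lower (-0.30, limma adjusted p = 0.000133), and likewise after quantile normalization (-0.38). Its sign turned without LF3 replicate 3 (0.027) and without CON replicate 2 (0.0047), with no call in either. NUP98, which lines the channel and also binds genes in the nucleoplasm, had 75.9, 79.9 and 77.9 TPM in LF3, against 37.8, 38.4 and 37.2 TPM in CON. RAE1, its partner in mRNA export, had 101, 108 and 108 TPM in LF3, against 66.1, 64.3 and 62.1 TPM in CON. NUP62 shares exon bases with ATF5 on the opposite strand and with IL4I1 and AC011452.1 on its own, and NUP98 with PGAP2 and CHRNA10. GENCODE v29 lists 1 pseudogene named after NUP58.

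The nuclear basket reaches into the nucleus and takes part in mRNA export. TPR, its main filament, had 41.6, 40.3 and 31.4 TPM in LF3, against 35.5, 37.2 and 35.0 TPM in CON, with a log2 fold change of 0.061 and a 95% interval from -0.14 to 0.26 (limma adjusted p = 0.542). LF3 replicate 3 lay below every CON library and the other two LF3 libraries above them. Without LF3 replicate 3 TPR was called higher (0.18, adjusted p = 0.00792), and after both rescalings it was called lower (-0.21 and -0.30). NUP50, which helps release importin alpha cargo, had 72.5, 74.5 and 64.9 TPM in LF3, against 22.4, 22.8 and 22.0 TPM in CON, a rise of 1.61 ± 0.058. NUP153, which anchors the basket, had 49.8, 52.3 and 45.8 TPM in LF3, against 26.6, 27.6 and 23.8 TPM in CON, a rise of 0.90 ± 0.068. TPR thus held 23.9 ± 1.64% of basket TPM in LF3 and 42.6 ± 0.602% in CON, and NUP50 44.8 ± 0.741% in LF3 and 26.6 ± 0.603% in CON. TPR shares exon bases with PRG4 on the opposite strand.

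On the cytoplasmic face, 4 of 5 genes were higher as deposited, against 53.2% of all tested genes. RANBP2, the giant filament protein that holds SUMO-modified RANGAP1 at the pore, had 42.6, 40.8 and 33.0 TPM in LF3, against 33.9, 34.6 and 33.2 TPM in CON. Its log2 fold change of 0.18 had a 95% interval from -0.0022 to 0.36 (limma adjusted p = 0.0606). LF3 replicate 3 again lay below the other two and below every CON library, and without it RANBP2 was called higher (0.29, adjusted p = 0.000443); it turned to -0.086 after median-ratio rescaling and was lower after quantile normalization (-0.17). Near-identical RGPD copies of RANBP2 exist, and no source used here says how reads shared with them were counted. NUP42, a partner of the mRNA export factor GLE1, had 44.3, 43.9 and 42.5 TPM in LF3, against 12.7, 11.9 and 11.7 TPM in CON, a rise of 1.77 ± 0.055. NUP88 had 56.2, 55.8 and 49.8 TPM in LF3, against 16.6, 18.1 and 17.2 TPM in CON, while NUP214, which binds NUP88 and XPO1, rose by 0.75 ± 0.060. NUP88 shares exon bases with RABEP1 and RPAIN on the opposite strand. AAAS, mutated in triple-A syndrome, had 48.2, 47.3 and 48.7 TPM in LF3, against 29.6, 33.4 and 30.7 TPM in CON.

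LF3 replicate 3 was the lowest of its group for 38 of the 56 tested genes (67.9%) and for 55.0% of all tested genes. CON replicate 3 was the lowest of its group for 32 of the 56 (57.1%) and for 38.2% of all tested genes.

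Of the membrane-anchored nucleoporins, all 3 were higher under each scaling. NUP210, a pore membrane protein known to vary between tissues, was lowest in level and highest in change, at 17.8, 17.0 and 17.3 TPM in LF3, against 2.76, 2.82 and 2.79 TPM in CON, a ratio of means of 6.22; GENCODE v29 lists 3 pseudogenes named after it. NDC1, which recruits scaffold nucleoporins to the membrane, had 58.2, 57.4 and 55.3 TPM in LF3, against 17.9, 19.2 and 17.3 TPM in CON. POM121 had 47.3, 46.6 and 47.1 TPM in LF3, against 28.2, 28.7 and 30.0 TPM in CON, and its near-identical copy POM121C rose by 0.71 ± 0.054, so reads may be split between the pair. POM121 was the most abundant of the 3 in CON and NDC1 in LF3. NUP62CL, an X-linked relative of NUP62, had 8.81, 10.5 and 8.42 TPM in LF3, against 11.7, 11.7 and 10.6 TPM in CON (limma adjusted p = 0.0139). NUP210L, a paralog known from testis, was listed at 0.0200 TPM in each LF3 library and at 0, 0.0200 and 0 TPM in CON.

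**Figure D4:**
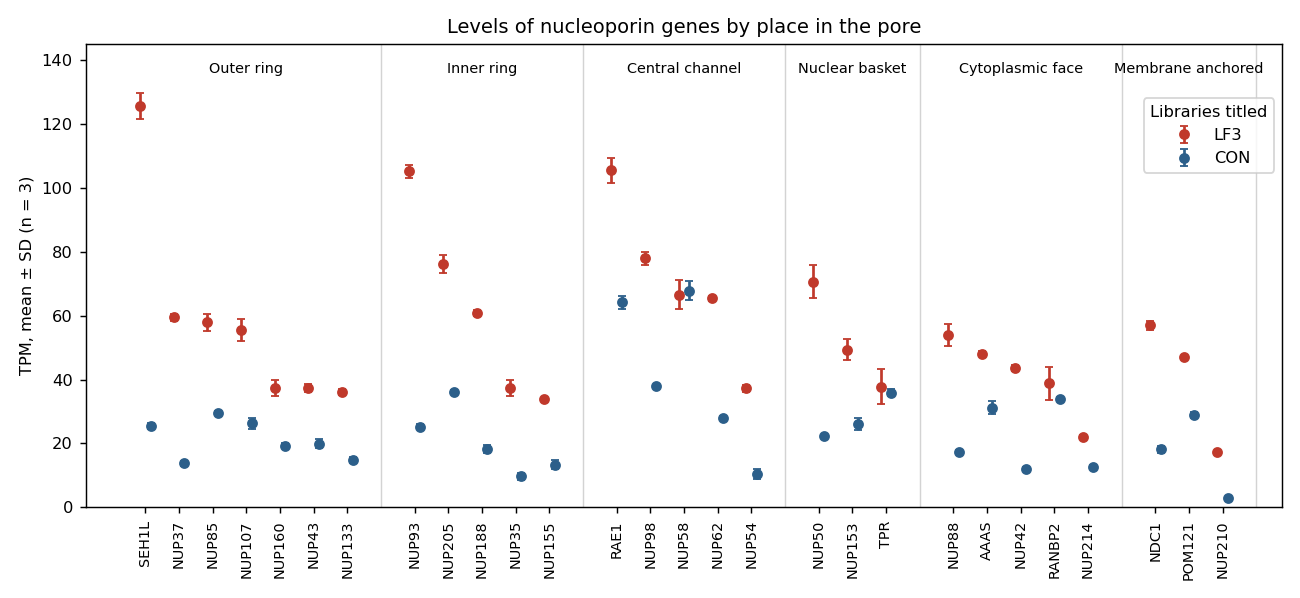
Mean TPM ± SD (n = 3) of the 28 nucleoporin genes by place in the pore, LF3 left of CON for each gene. In 25 genes the LF3 mean lies clearly above the CON mean, with the widest gap for SEH1L at 126 against 25.4 TPM, whereas the SD bars of NUP58, TPR and RANBP2 overlap between groups.

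TPM as deposited was summed over the genes of the symbol rule at each place in the pore, and the ratio of LF3 to CON taken. No rescaling was applied, so the general shift toward higher values in LF3 is part of each ratio. This ratio was 3.05 for the inner ring, 2.74 for the outer ring and 2.43 for the membrane anchors. It was 1.92 for the cytoplasmic face, 1.87 for the basket and 1.69 for the central channel. For the soluble machinery it was 4.57 for the Ran cycle, 3.45 for importin alpha, 2.25 for exportins and 1.88 for import receptors. The summed Ran cycle TPM was 1507, 1529 and 1578 in LF3, against 335, 333 and 342 in CON. These sums are led by their most abundant genes. The outer ring sum, 409 TPM in LF3 and 149 TPM in CON, leaves out SEC13, at 107 TPM in LF3 and 128 TPM in CON. With SEC13 counted the outer ring ratio would be lower, so the order of places holds only for the genes summed.

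Other genes of the pathway, outside the symbol rule, fall into 3 lists, whose counts stand beside the 53.2% of all tested genes called higher and 32.3% called lower as deposited, and the 42.6% higher and 42.7% lower after median-ratio rescaling. The median log2 fold change was 0.87 for the further pore and transport genes, 1.02 for mRNA export and 1.06 for the lamina list, against 0.24 for all tested genes. Of 11 further pore and transport genes, 10 were tested, of which 9 were higher and 1 lower as deposited, and 8 higher and 1 lower after median-ratio rescaling. The exception was SEC13, shared between the outer ring and the COPII coat of secretory vesicles, at 107 ± 3.65 TPM in LF3 and 128 ± 9.35 TPM in CON (limma adjusted p = 0.000846). AHCTF1, which seeds pore assembly on chromatin, rose by 0.95 ± 0.081, and NUTF2, which carries Ran-GDP back into the nucleus, by 1.06 ± 0.040. XPOT, the exportin for tRNA, rose by 0.33 ± 0.047, which became 0.062 after rescaling. In mRNA export, 18 of 19 genes were higher, 16 of them after rescaling, and THOC6 was not called as deposited and lower after rescaling. DDX39A and ALYREF, which recruit the export receptor to spliced mRNA, rose by 2.79 ± 0.057 and 2.64 ± 0.073, and NXF1, that receptor, by 1.10 ± 0.056. Of 9 nuclear lamina and inner membrane genes, 8 were higher and SUN2 was not called; after rescaling 7 were higher and SUN1 and SUN2 lower. LMNB1, a B-type lamin, was at 137 ± 5.10 TPM in LF3 and 12.4 ± 1.16 TPM in CON (3.37 ± 0.065), and LMNA, the A-type lamin gene, rose by 0.96 ± 0.041.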

How the data were processed

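The authors deposited 1 table of TPM values per gene and library, written to 2 decimals; each library sums to 1000000 per the file's own values. Per the submitters' processing notes, HISAT and Bowtie2 were used and the build is named as GRCm38.p6, a mouse assembly, while the gene identifiers and symbols are human. What the reads were aligned to is therefore not settled, and no coordinates are given for the measured values; those of the printed promoters are RefSeq's, on GRCh38.p14. Reads were single-end, 50 bases, on a BGISEQ500, per the labels' protocols. Strand handling and the counting of reads shared by several genes are not stated.

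Groups were taken from the sample titles. Tests were run on log2(TPM + 1), for genes averaging 1 TPM or more, with limma 3.58.1 in R 4.3.3 (two-sided, prior variance following mean level), and p-values were adjusted by Benjamini-Hochberg over all 12195 tested genes, with a threshold of 0.05. The transform understates the change of low genes. An exact permutation test of 3 against 3 cannot go below 0.1, so none is given. All 58 identifiers matched human RefSeq. Pseudogenes and shared exons were read from GENCODE v29, by symbol. The procedure was tested on simulated data with few genes changed, as many up as down, and without a general shift. That setting is unlike these data, so the simulation does not bear on the scaling. Per-library values are given for RAN, RANBP1, RANBP2, RANGAP1, RCC1, KPNA2, KPNB1, CSE1L, XPO1, TPR and NUP98, for the 2 largest and 2 smallest changes of each role, and for genes not called; KPNA7, XPO6 and NUP210L were added. Genes, lists and motifs were chosen with earlier results of these data known. Other settings tried were smaller pseudocounts (0.1 or 0.5), filters at 5 TPM or none, median-ratio and quantile scaling, limma without the trend, a replicate block, and omission of each library in turn. Figures used matplotlib 3.10.9 in Python 3.11.15.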

Additional observations from a re-analysis of the deposited data

How the results depend on the processing

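The number of genes called higher, 51 as reported, was 49 to 53 under all alternatives run, and 52 with the replicate block, where RANBP2 was added (adjusted p = 0.0318). Leaving out 1 library gave 50 to 53 higher and 2 lower. The 2 called lower became 4 after median-ratio scaling and 6 after quantile normalization, and the median log2 fold change of 1.09 became 0.83 and 0.77; omitting a library gave 1.05 to 1.14. Over all tested genes, 6236 to 6550 were higher and 3749 to 3937 lower with a library omitted, and no alternative moved these counts by over 1.5 times. IPO7, RANBP2 and TPR reversed after median-ratio scaling (-0.086, -0.086 and -0.21) and quantile normalization (-0.14, -0.17 and -0.30). With a library omitted, TPR ran from -0.012 (without LF3 replicate 1) to 0.18 (without LF3 replicate 3), and NUP58 from -0.059 (without CON replicate 3) to 0.027 (without LF3 replicate 3), with 0.0047 without CON replicate 2. The cause was not tested. The share of importin alpha TPM held by KPNA2 in LF3, 68.0%, was 69.4% after quantile normalization, a shift larger than the SD of 0.651 between LF3 libraries. It was 67.8 to 68.4% without an LF3 library, and in CON 38.1 to 39.3% without a CON library. The CON share after quantile normalization is not given here. These checks of the share were added after the data were seen. No label says what same-numbered libraries share beyond the number. Their deviations correlated at 0.048, 0.11 and 0.16 across genes, and those of differently numbered libraries at -0.17 to 0.074. For each LF3 library the same-numbered CON library gave the highest of these values. Whether same-numbered libraries share a batch was not tested. The depth behind each value is unknown.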
